A study of Mus musculus with 6 samples.

Results

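Chemokines are small secreted proteins that guide the movement of cells by binding receptors on their surface. The ligands considered here are 9 chemokine genes that T cells are known to transcribe: Ccl1, Ccl3, Ccl4, Ccl5, Ccl9, Ccl17, Ccl20, Ccl22 and Xcl1. They were taken by name from the gene symbols of the array, which carries 27029 symbols, and all 9 were found, with 10 probes between them. The RNA came from iTreg cells, that is, regulatory T cells induced in culture from naive CD4+ T cells, of 3 miR-31fl/flCD4Cre (cKO) mice and 3 miR-31fl/fl control mice on the C57BL/6 background, 6 weeks old. In cKO mice the Cre recombinase is driven by Cd4 regulatory sequence, so the floxed miR-31 is removed in all cells descended from CD4-expressing thymocytes, CD8 T cells included, whereas control mice carry the floxed alleles and no Cre. Cells of both genotypes were held for 4 days on anti-CD3 at 5 µg/ml with anti-CD28 at 2 µg/ml, with TGF-β1 at 5 ng/ml and, per the labels, IL-2 at 40 ng/ml. There was 1 one-colour Agilent array for each culture.

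The ligands fall into receptor groups. Ccl3, Ccl4 and Ccl5 are inflammatory chemokines that attract T cells and monocytes. Ccl1 is the ligand of Ccr8, and Ccl17 and Ccl22 are the ligands of Ccr4, receptors found on regulatory and type 2 helper T cells. Ccl20 binds Ccr6, a receptor of type 17 helper cells and some regulatory T cells. Xcl1 binds Xcr1 on cross-presenting dendritic cells, and Ccl9 acts through Ccr1 on myeloid cells. Activated T cells switch on several of these genes through NFAT, NF-κB and AP-1 factors downstream of the T cell receptor.

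The microRNA deleted in cKO T cells is printed first, since it defines the genotype, with its seed (bases 2 to 8) in capitals. Its sequence is that of the RefSeq tables on build GRCm38.p6, where it lies on chromosome 4 from 88910614 to 88910635 on the minus strand.
miR-31-5p: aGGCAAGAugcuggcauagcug

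The 250 bases before the start site of 3 ligand genes follow, those of Xcl1 and Ccl1, which had the lowest fitted values among the brightly read ligands, and of Ccl20. They are RefSeq sequence on GRCm38.p6, 5′ to 3′ on the strand of the gene. Capitals mark matches on either strand to the NFAT core GGAAA, to the AP-1 motif TGANTCA, to the NF-κB consensus or to TATAAA. Xcl1 was read at chr1:164935523-164935772 on the minus strand, Ccl1 at chr11:82179813-82180062 on the minus strand and Ccl20 at chr1:83116516-83116765 on the plus strand.
Xcl1: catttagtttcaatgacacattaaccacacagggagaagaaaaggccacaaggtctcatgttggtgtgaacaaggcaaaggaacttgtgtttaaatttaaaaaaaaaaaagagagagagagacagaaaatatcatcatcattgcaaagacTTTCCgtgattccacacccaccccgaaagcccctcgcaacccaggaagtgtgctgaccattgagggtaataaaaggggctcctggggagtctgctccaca
Ccl1: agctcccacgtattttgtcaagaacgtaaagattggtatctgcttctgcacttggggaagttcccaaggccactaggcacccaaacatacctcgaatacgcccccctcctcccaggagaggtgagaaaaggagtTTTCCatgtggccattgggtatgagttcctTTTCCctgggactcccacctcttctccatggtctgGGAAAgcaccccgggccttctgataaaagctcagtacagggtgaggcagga
Ccl20: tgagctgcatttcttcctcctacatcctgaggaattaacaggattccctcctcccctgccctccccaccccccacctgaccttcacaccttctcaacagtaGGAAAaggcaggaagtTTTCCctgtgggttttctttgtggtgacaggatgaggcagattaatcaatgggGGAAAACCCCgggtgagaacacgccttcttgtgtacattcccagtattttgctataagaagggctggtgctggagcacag

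The GGAAA core was found in 6 of the 7 ligand genes with a promoter in these tables, all but Ccl22, and in 55.6% of all 32851 promoter windows of the same length. It occurred at 1 place in the Xcl1 window and at 3 places each in those of Ccl1 and Ccl20. The NF-κB consensus was found in 2 of the 7, Ccl20 and Ccl9, against 3.9% of all windows, and in the Ccl20 window it overlaps a GGAAA core. The AP-1 motif and TATAAA were each found in 1 of the 7, Ccl9 in both cases, against 6.7% and 12.4% of all windows. These matches are descriptions of the letters only.

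Array signal is given as the log2 of the processed signal after subtracting that of the 75th percentile of the same array, so that 0 is the level of that percentile, and a difference of 1 is a doubling. A higher level at 1 probe than at another is not read as more transcript, because a probe's brightness depends on its sequence. Sums over marker lists therefore weight genes by the brightness of their probes, and brightest refers to probe signal only. The groups were compared with limma over the 22281 probes that 3 or more arrays showed to be well above background. A gene with several probes was counted at its brightest tested probe. In bulk RNA, fewer cells making a transcript and less transcript per cell cannot be told apart. Between 49.3% and 57.7% of spots stood well above background on the 6 arrays. The 3 cKO arrays and control array 1 share a slide, and control arrays 2 and 3 lie on another.

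Of the 9 ligands, 8 were tested and 6 stood well above background on all arrays. After adjustment over all tested probes, 0 of the 8 passed an adjusted p of 0.05 in limma, where 0.242% of all tested probes did. At an unadjusted p under 0.05, 2 of the 8 passed, Xcl1 (lower in cKO) and Ccl5 (higher), against 23% of all tested probes. A stricter rule, with the fold beyond 3.5 and p below 0.05 before adjustment, was met by 0 of them, against 0.987% of all tested probes. The genotypes did not overlap for 4 of the 8 genes, 1 higher and 3 lower in cKO, where 36.6% of all tested probes did not overlap. Of the 3 lower genes, Ccl9 and Ccl17 were well above background on 1 cKO array each, so their separation rests on values near the background. Among the 6 genes well above background on all arrays, 1 was higher and 1 lower without overlap. The fitted difference was below 0 for 6 of the 8 genes and above 0 for 2, where 55.2% of all tested probes were below 0. Its median over the 8 genes was −0.93 on the log2 scale, beside −0.04 over all tested probes. Without cKO array 3 the split was 5 below and 3 above 0 and the median −0.35, and over the 6 genes well above background on all arrays the median was −0.52. With both limits applied, the 6 genes split 3 below and 3 above 0, with a median of −0.15.

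**Figure D1:**
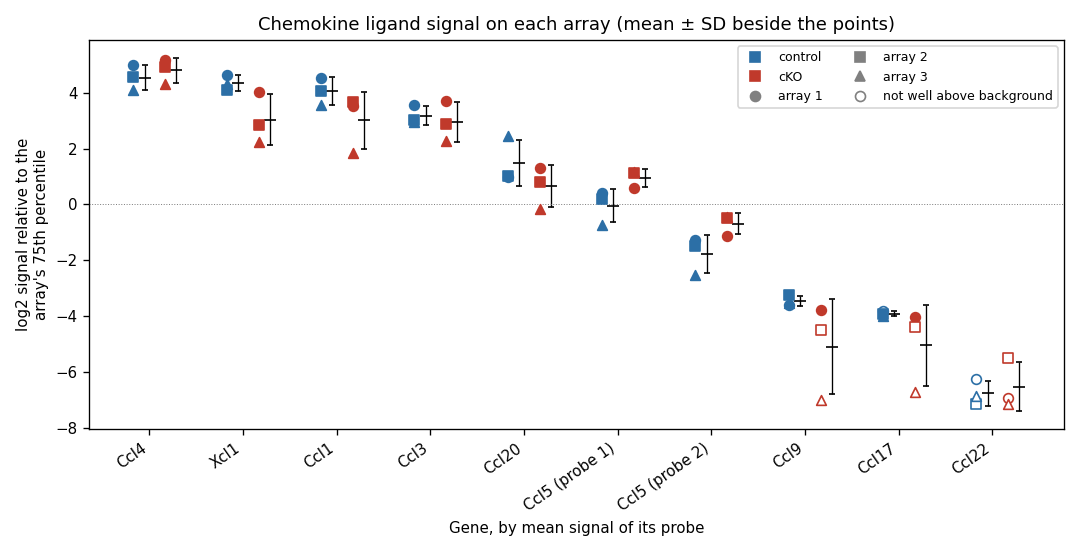
Signal of each ligand probe on the 6 arrays, on the y axis in log2 units with the 75th percentile of the array at 0, with genes on the x axis in order of their probe's mean. Blue points are control and red points cKO arrays, open points are not well above background, and bars give the mean ± SD of 3 arrays. The Xcl1 points of cKO lie below those of control, the points of both Ccl5 probes lie above, and for Ccl9 and Ccl17 cKO array 3 lies far below the other 5 arrays.

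Among the inflammatory ligands, Ccl5 (RANTES, stored and secreted by effector and memory T cells) was read by 2 probes. The brighter one, on mm9 chromosome 11 from 83339296 to 83339355, had log2 signals of 0.59, 1.13 and 1.15 on cKO arrays 1 to 3 and of 0.39, 0.19 and −0.72 on control arrays 1 to 3. The groups did not overlap, with all cKO arrays above the control arrays and control array 3 the lowest. The means were 0.96 ± 0.32 in cKO and −0.05 ± 0.59 in control cells (SD, n = 3). The log2 fold change was 1.00 (standard error 0.32, 95% confidence interval 0.22 to 1.79), with an adjusted p = 0.17 in limma. The other probe, which the array's annotation places at no position, had −1.11, −0.49 and −0.46 in cKO and −1.26, −1.48 and −2.54 in control cells. Its groups did not overlap either, and its log2 fold change was 1.07 (standard error 0.37), with an adjusted p = 0.18 in limma. The 2 probes read the same RNA of the same arrays and are not independent. Within slide 1, which compares the cKO arrays with control array 1 alone, the difference at the brighter probe was 0.56, and without control array 3 it was 0.67.

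Ccl4 (MIP-1β, an early product of activated T cells) had log2 signals of 5.16, 4.92 and 4.29 in cKO and 4.98, 4.54 and 4.09 in control cells. The genotypes overlapped. The log2 fold change was 0.26 (standard error 0.30, 95% confidence interval −0.49 to 1.00), with an adjusted p = 0.62 in limma, and within slide 1 it turned to −0.18. Ccl3 (MIP-1α, a ligand of Ccr1) had 3.69, 2.86 and 2.26 in cKO and 3.56, 3.01 and 2.93 in control cells. These groups also overlapped, and the fitted log2 difference was −0.23 (standard error 0.38, 95% confidence interval −1.15 to 0.69), with an adjusted p = 0.73 in limma. Without cKO array 3 the value turned to 0.11.

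The probes of Ccl3 and Ccl4 lie 16.6 kb apart on mm9 chromosome 11, on a stretch that also holds those of Ccl9 and Ccl5. Among the 9 ligands alone, the probe of Ccl9 follows that of Ccl5 after 48.9 kb, and that of Ccl3 follows after a further 73.1 kb, with the probe of Ccl6, which is not one of the 9, in between. The difference between the log2 signals of Ccl4 and Ccl3, taken within each array, was 1.47, 2.06 and 2.03 in cKO and 1.42, 1.54 and 1.16 in control cells. The groups overlapped, and the change of this difference between genotypes was 0.48 (exact permutation test, 2-sided p = 0.2). Of the 9 ligands, the 4 on this stretch had fitted differences in both directions, with Ccl5 and Ccl4 above 0 and Ccl3 and Ccl9 below.

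Xcl1 (lymphotactin, made by activated CD8 T cells, NK cells and some CD4 T cells), on mm9 chromosome 1 from 166862020 to 166862079, had log2 signals of 4.03, 2.85 and 2.22 in cKO and 4.63, 4.08 and 4.29 in control cells. All cKO arrays lay below the control arrays, but cKO array 1 lay within 0.1 of the lowest control array. The means were 3.04 ± 0.92 and 4.33 ± 0.28 (SD, n = 3). The log2 fold change was −1.30 (standard error 0.45, 95% confidence interval −2.40 to −0.19), 2.46-fold lower in cKO, with an adjusted p = 0.19 in limma. An exact permutation test of 3 arrays against 3 gave a 2-sided p = 0.1, the smallest it can give. The difference was −1.60 within slide 1 and −0.89 without cKO array 3, the array with the lowest value. With each array left out it lay between −1.79 and −0.89.

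Ccl1 (an attractant of Ccr8-bearing T cells), on mm9 chromosome 11 from 81990336 to 81990395, had log2 signals of 3.51, 3.65 and 1.85 in cKO and 4.54, 4.06 and 3.57 in control cells. Its groups overlapped, because cKO array 2 lay above control array 3. The log2 fold change was −1.05 (standard error 0.53, 95% confidence interval −2.32 to 0.23), with an adjusted p = 0.27 in limma. Without cKO array 3 it was −0.47, and within slide 1 it was −1.53.

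Ccl20 (MIP-3α, the ligand of Ccr6) had 1.32, 0.81 and −0.15 in cKO and 0.99, 1.02 and 2.43 in control cells. The genotypes overlapped. The highest signal was that of control array 3 and the lowest that of cKO array 3. The log2 fold change was −0.82 (standard error 0.52, 95% confidence interval −2.09 to 0.45), with an adjusted p = 0.36 in limma. It was −0.35 without control array 3, −0.42 without cKO array 3 and −0.33 within slide 1.

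The ligands of Ccr4 and the myeloid chemokine Ccl9 were near the background. Ccl9 had log2 signals of −3.77, −4.49 and −6.99 in cKO and −3.58, −3.23 and −3.53 in control cells. It was well above background on 1 of the 3 cKO arrays and on all 3 control arrays, and the value of cKO array 3 is one that the extraction software substituted for a signal too low to be used. The log2 fold change was −1.64 (standard error 0.79), with an adjusted p = 0.26 in limma. Ccl17 (TARC, made mainly by dendritic cells) had −4.03, −4.39 and −6.72 in cKO and −3.82, −3.93 and −4.00 in control cells, and was well above background on 1 cKO and 2 control arrays. Its log2 fold change was −1.13 (standard error 0.68), with an adjusted p = 0.34 in limma. Every cKO value of both genes lay below every control value. Without cKO array 3 the fitted differences were −0.68 for Ccl9 and −0.29 for Ccl17, and with normexp background correction and the 75th percentile they turned to 0.42 and 0.58. Ccl22 (MDC, made by dendritic cells and activated T cells), whose probe lies 61.0 kb from that of Ccl17 on mm9 chromosome 8, was not well above background on any array and was not tested.

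**Figure D2:**
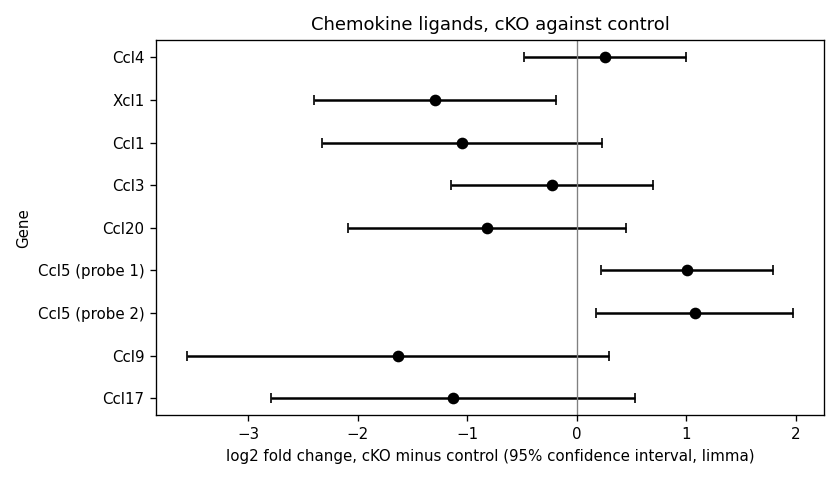
Log2 fold change of each tested ligand probe between cKO and control iTreg cells on the x axis, with the 95% confidence interval from limma. The intervals of Xcl1 (−2.40 to −0.19) and of both Ccl5 probes exclude 0 before adjustment, and those of the other 6 probes include it.

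cKO array 3 gave the lowest of the 6 signals for 6 of the 8 tested ligands, all but Ccl5 and Ccl4. It was the lowest of 6 for 35.2% of all tested probes with a value on every array. Ccl9 had the largest spread of the tested ligands (SD 1.40 over the 6 arrays), which rests on its substituted value on cKO array 3 and on 2 cKO arrays where it was not well above background. By this same probe, the genes whose pattern lay nearest to it, after each probe's own mean was subtracted, were Ccl17, Dnahc7b and Dnahc7a, at root mean square distances of 0.33, 0.37 and 0.37 on the log2 scale among 14349 genes. Dnahc7a and Dnahc7b encode dynein heavy chains, and both were well above background on all 6 arrays. Their signals were lowest on cKO array 3, at −2.23 for Dnahc7a and −3.16 for Dnahc7b, which follows from choosing them for nearness to Ccl9.

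**Figure D3:**
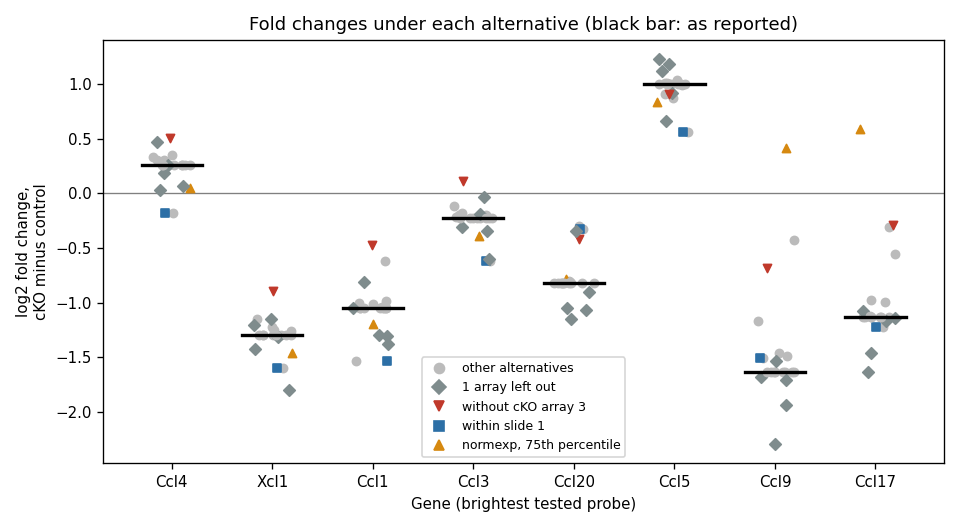
Log2 fold change of each ligand, on the y axis, as reported (black bars) and under each alternative (points). Ccl5 stayed between 0.56 and 1.22 and Xcl1 between −1.79 and −0.89, whereas the points of Ccl4, Ccl3, Ccl9 and Ccl17 lie on both sides of 0.

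Receptors of these ligands were compared in the same fit. Ccr6, the receptor of Ccl20, had log2 signals of 1.90, 2.88 and 2.51 in cKO and 0.95, 1.48 and 2.03 in control cells, which overlapped. Its log2 fold change was 0.95, with a standard error of 0.35 (adjusted p = 0.20 in limma). Ccr8, the receptor of Ccl1, had 0.99, 1.44 and 1.18 in cKO and 1.52, 1.34 and 1.63 in control cells. The groups overlapped and differed by −0.30, with a standard error of 0.15 (adjusted p = 0.29 in limma). Ccr4 differed by 0.11 on the log2 scale, with a standard error of 0.33 (adjusted p = 0.85 in limma), and Xcr1 by −0.38, with a standard error of 0.32 (adjusted p = 0.47 in limma), each with overlapping groups. Xcr1 was well above background on 2 cKO and 2 control arrays, and Ccr1 and Ccr3 were not well above background on any array.

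Of 27 other chemokine ligands on the array, 5 were tested, and 18 were not well above background on any array. Of the 5, 0 passed the adjusted threshold, where 0.242% of all tested probes did. Their median log2 fold change was 0.30, beside −0.04 over all tested probes. Ccl25, a thymic and intestinal chemokine, had −0.46, −0.35 and −0.34 in cKO and −0.78, −0.73 and −0.63 in control cells. The groups differed by 0.33, with a standard error of 0.10 (adjusted p = 0.16 in limma). Ccl27a, a skin chemokine, ranged from −1.18 to −0.38 in cKO and from −2.03 to −1.61 in control cells. The groups differed by 0.90, with a standard error of 0.24 (adjusted p = 0.14 in limma). For both genes the genotypes did not overlap, where 36.6% of all tested probes did not.

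Of 21 tested transcription factors of activated and helper T cells, 0 passed the adjusted threshold, where 0.242% of all tested probes did. There were 14 fitted above 0 and 7 below, where 55.2% of all tested probes were below 0. The median log2 fold change was 0.12, beside −0.04 over all tested probes. Stat3, the transducer of IL-6 family signals, differed by 0.58 on the log2 scale, with a standard error of 0.16 (adjusted p = 0.14 in limma), and its groups did not overlap. Rela, the main activating NF-κB subunit, differed by 0.00, with a standard error of 0.11 (adjusted p = 0.99 in limma).

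The label of iTreg cells was checked against marker lists. All 8 T cell markers and all 8 Treg markers were well above background on all arrays. The adjusted threshold was passed by 0 of them, against 0.242% of all tested probes. The summed signal of the T cell list, in multiples of the 75th percentile, was 267 to 333 on cKO and 249 to 262 on control arrays. Cd3d and Cd5 carried most of it and differed by 0.38 (adjusted p = 0.20 in limma) and 0.11 (adjusted p = 0.56 in limma). Of the T cell markers, 6 were fitted above 0 and 2 below. The 2 below were Cd3e, at −0.28 without overlap (adjusted p = 0.18 in limma), and Lck, at −0.09 (adjusted p = 0.59 in limma). The summed signal of the Treg list was 303 to 405 on cKO and 236 to 303 on control arrays. Of the Treg markers, 6 were fitted above 0 and 2, Foxp3 and Il2ra, below, where 55.2% of all tested probes were below 0. Their median log2 fold change was 0.46. Tnfrsf18 and Tnfrsf4, receptors of the TNF family, were the brightest of them and carried most of the Treg sum. They differed by 0.40 (adjusted p = 0.29 in limma) and 0.51 (adjusted p = 0.21 in limma). Ctla4, an inhibitory receptor, differed by 0.94 (adjusted p = 0.14 in limma), with all cKO arrays above the control arrays. Foxp3, the defining factor of Treg cells, differed by −0.62 on the log2 scale, with a standard error of 0.22 (adjusted p = 0.19 in limma). All cKO arrays lay below the control arrays for Foxp3. Il2ra differed by −0.56, with a standard error of 0.33 (adjusted p = 0.33 in limma), and its groups overlapped. Foxp3, Ctla4 and Il2ra were named after their values were seen.

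Markers of other cells were summed in the same way, with no test of the sums. The adjusted threshold was passed by 0 of these genes, against 0.242% of all tested probes. The stricter rule, a fold beyond 3.5 with p below 0.05 before adjustment in limma, was met by 0.987% of all tested probes. Here it was met by 1 gene in each of the dendritic cell and macrophage, NK cell, and platelet and erythroid lists. Of 15 genes of dendritic cells and macrophages, 6 were tested, and Itgax, Emr1, Lyz1, Mrc1 and Cd209a were not well above background on any array. The summed signal of this list was 29.4 to 38.7 on cKO and 12.3 to 20.8 on control arrays. Cd74 and H2-Ab1, which encode the invariant chain and an MHC class II chain, were its brightest genes and carried most of this sum. Of its 6 tested genes, 5 were fitted above 0 and 1 below, where 55.2% of all tested probes were below 0. H2-Ab1 met the stricter rule and differed by 1.84 (adjusted p = 0.14 in limma). The gene below 0 was H2-Aa, another MHC class II chain, at −0.50 with overlapping groups (adjusted p = 0.55 in limma). Of 8 NK cell genes, 4 were tested and all 4 were fitted above 0, with a summed signal of 59.3 to 61.1 on cKO and 25.8 to 46.4 on control arrays. The median log2 fold change of the 4 was 1.70. Among these genes was Nkg7, a granule protein that cytotoxic T cells also express, which carried most of the sum. Nkg7 differed by 0.60 (adjusted p = 0.20 in limma). Klrd1, the gene of this list that met the stricter rule, differed by 1.88 (adjusted p = 0.20 in limma). Klrk1 differed by 1.71 (adjusted p = 0.20 in limma). The groups of Klrd1 and Klrk1 overlapped. Klrb1c and Klre1 were not well above background on any array, and Ncr1 was so on 2 cKO arrays and on 0 control arrays. The CD8 T cell genes Cd8a and Cd8b1 summed to 3.87 to 4.34 on cKO and 4.42 to 5.61 on control arrays. Of 6 B cell genes 2 were tested, with sums of 0.61 to 1.45 on cKO and 0.47 to 0.72 on control arrays. Of 7 mast cell and basophil genes Kit was tested, with sums of 0.35 to 1.90 and 0.25 to 0.58. Of 6 platelet and erythroid genes Hbb-b1 was tested, with sums of 0.51 to 1.09 and 0.20 to 0.37. Hbb-b1 carried most of the sum on the cKO arrays. Hba-a1, which was not tested, lay lower on all cKO arrays than on the control arrays. It was well above background on 0 cKO and 2 control arrays. The sums of the B cell and of the mast cell and basophil lists overlapped between genotypes. The part of these cells in the differences of Ccl5, Xcl1 and the other ligands was not tested.

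**Figure D4:**
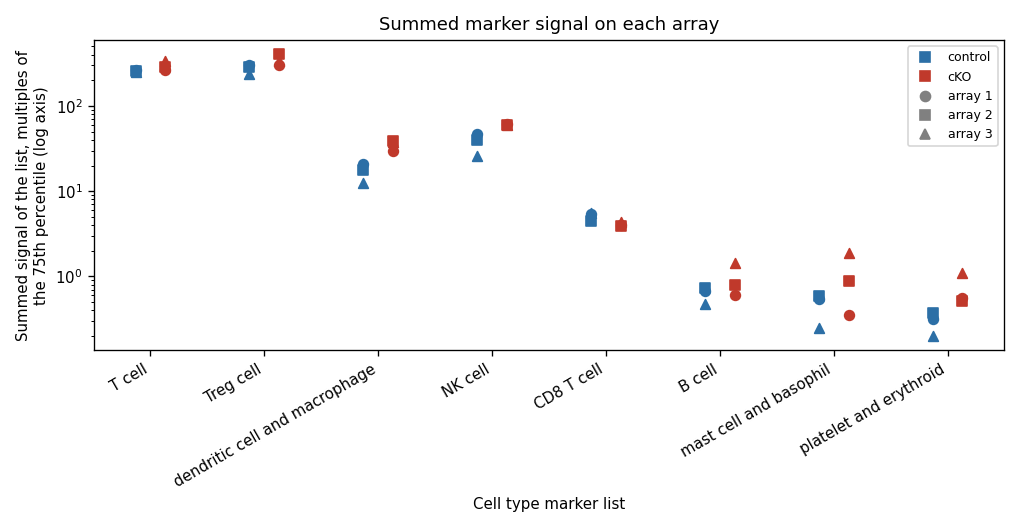
Summed signal of each cell type marker list on every array, in multiples of the array's 75th percentile on a log axis, with control arrays in blue and cKO arrays in red. The cKO arrays lie above the control arrays for the dendritic cell and macrophage list (29.4 to 38.7 against 12.3 to 20.8). They also lie above for the NK cell, T cell, Treg cell and platelet and erythroid lists, the Treg list by little. They lie below for the CD8 T cell list, while the other lists overlap. Most of the sum comes from Cd74 and H2-Ab1 in the dendritic cell and macrophage list. In the NK cell list it comes from Nkg7, in the T cell list from Cd3d and Cd5, and in the Treg list from Tnfrsf18 and Tnfrsf4.

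The 60-base probes of the 10 ligand probes held 0 matches to the 7-base complement of the miR-31-5p seed printed above, which occurs in 0.32% of all probes on the array. This concerns the probes only, since transcript sequences were not used here.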

How the data were processed

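RNA of 3 cKO and 3 control cultures was hybridized by the authors to one-colour Agilent arrays. The deposited intensity values are linear, background-subtracted and detrended within each array by Feature Extraction (version 10.7.3.1 per the file headers, 9.1 per the labels). The log2 values of the authors' table have nearly equal distributions, and its 6 columns were all assigned (0 left over). Here, outlier spots were dropped, log2 signals of a probe's spots averaged and each array's 75th percentile over its 43379 non-control spots (987 to 1148) subtracted. Probes well above background, at a non-outlier spot, on at least 3 arrays were tested with limma 3.58.1 (R 4.3.3), and p-values were adjusted over 22281 probes by the Benjamini-Hochberg method. Only the limma and t-test fits were tested on simulated data, with normal noise and planted differences larger than any fitted for a ligand. The steps before the fits were not tested in this way. Tables used Python 3.11.15 and pandas 2.3.3, and plots matplotlib 3.10.9.

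The members and lists were chosen with earlier results of these data known. The filter was first run counting outlier spots as well (22304 probes) and was then changed, among several definitions compared, to match the probe count of an earlier analysis of these data. The percentile over spots was run first and kept, after a percentile over probe averages, which matches that analysis in calls, had also been run. Both other settings are given as alternatives. Named genes are the members, the tested receptors, the 2 brightest genes of each other list or any gene called, and the 3 patterns nearest to the most variable member. Of the list genes, only some that meet this rule are named, and 1 receptor result and the counts over the receptor list are not reported here. Replicate numbers showed no pairing (correlations of deviations −0.14, 0.01 and −0.19). The labels and methods give different IL-2 doses. Whether each array is a separate mouse rests on the methods, and the number of arrays limits the precision.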

Additional observations from a re-analysis of the deposited data

How the results depend on the processing

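The count of ligands called was 0 under each of the 24 alternatives, 2 of which were chosen after seeing the data. Several alternatives called 0 probes on the whole array, so their count of 0 ligands follows from that alone. These include the methods' t-test, normexp with the 75th percentile, no filter on dim probes and the slide as a block. Each fit without a cKO array also called 0 probes. The looser call rules did call probes, with 0 ligands among them. An adjusted p under 0.10 called 457, and the rule on fold and unadjusted p called 220. Over the 24 alternatives the calls among all probes went from 0 to 2205, against 54 as reported. The highest count came with array weights (0.17 for cKO array 3). Taking the 75th percentile over probe averages, chosen after seeing the data, gave 29 calls instead of 54, and counting outlier spots in the background filter, also chosen then, gave 54 calls among 22304 probes. The replicate block gave 0 ligands and 0 probes in all, and the replicate numbers showed no pairing.

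Of 174 fitted differences of single ligands under the alternatives, 169 kept their direction and side of the threshold and 5 turned. Several alternatives, among them the t-test, the background filters and the replicate block, cannot change the fitted difference, so this count overstates the stability. The slide as a block and the comparison within slide 1 give the same value. Ccl4 turned to −0.18 with the slide as a block and within slide 1, Ccl3 to 0.11 without cKO array 3, and Ccl9 to 0.42 and Ccl17 to 0.58 with normexp and the 75th percentile. The cause was not tested. The lowest adjusted p over the alternatives was 0.063 for Xcl1 and 0.085 for Ccl5, and the highest was 0.89 for both. Ccl9 and Ccl17 fell out where a signal well above background was required on every array. With each array left out, Xcl1 lay between −1.79 and −0.89, Ccl5 between 0.67 and 1.22, Ccl1 between −1.37 and −0.47, Ccl20 between −1.15 and −0.35, Ccl3 between −0.60 and 0.11, and Ccl4 between 0.03 and 0.50. Signal near the background limits Ccl9, Ccl17 and Ccl22.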
